A study of Mus musculus with 24 samples.

Results

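Older LINE subfamilies are the long interspersed nuclear elements (LINE) of the mouse genome that do not belong to the young L1Md subfamilies. They were taken from a table of MeRIP-seq counts, in which every repeat row is named by its subfamily, family and class, as all rows of the class LINE whose name does not start with L1Md_. The rule found 152 subfamilies among 49090 features (47937 genes and 1153 repeat subfamilies). Of these, 127 were L1, 4 were L2, 15 were CR1, 5 were RTE and 1, Mam_R4, was Dong-R4. The L1 subfamilies were split by name into 84 mammalian-wide (L1M followed by a digit or by A to E), 33 murine (Lx, L1_Mus, L1_Mur, L1_Mm, L1VL and related names), 6 HAL1 and 4 others. After a filter on low counts 151 subfamilies were tested, and L1M2a1, which had between 0 and 9 normalized counts in each library, was not.

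Nuclear RNA came from 4 mouse embryonic stem (ES) cell lines grown with Serum Replacement and LIF. WT26 is a wild-type line (129/Sv x C57Bl6). The *Mettl14* KO line (A10) is 1 clone made from WT26 with CRISPR and carries a homozygous deletion that shifts the reading frame. RBC is an engineered wild-type line of the same background with BirA-V5 and Cre-ERT2 at Rosa26, and the *Mettl3* KO line (2c4d) is a clone derived from RBC, so that both carry these transgenes. In each line 2 biological replicates were measured as an input and as an IP with an antibody against N6-methyladenosine (m6A), which gave 16 libraries, and each input and its IP came from the same RNA preparation. The knockouts are 1 clone each, so the knockout and the clone cannot be told apart.

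LINE elements are retrotransposons that copy themselves through an RNA intermediate with their own reverse transcriptase. L1 is the family that is still active in the mouse, and its young L1Md subfamilies hold the copies that can move. The mammalian-wide L1M subfamilies predate the mouse lineage, and the Lx subfamilies are remnants of earlier rodent L1 activity. L1_Mus, L1VL and L1_Mm also belong to L1 of the mouse lineage, so "older" is here the name of the rule and not an age for every member. HAL1 is a relative of L1 that lacks the reverse transcriptase. L2, CR1 (with L3) and the RTE elements are ancient and immobile in the mouse, and their copies are truncated, diverged and spread through introns and intergenic DNA. METTL3, the catalytic subunit, and METTL14, its RNA-binding partner, deposit most m6A on nuclear RNA, and the antibody enriches fragments that carry it.

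Library totals ranged from 9394163 to 28441282 counts, and the replicate 2 library was the shallower of the pair in all 8 groups. Counts were divided by size factors (median of ratios over all features) and are called normalized counts. All 8 ES cell markers were detected in every input, with a summed level of 9152 to 14637. Sums were 27.2 to 87.9 for 5 markers of primitive endoderm, 20.3 to 108 for 5 of fibroblasts and 416.7 to 733.8 for 5 of neural cells. The ES cell sum of *Mettl14* KO (11100 and 11941) lay below that of WT26 (14637 and 14398). The *Mettl3* KO sum (9270 and 9152) lay below that of RBC (12605 and 12584), itself below WT26. None of the 8 was called in either knockout. Their log2 fold changes ran from -0.71 to -0.20 and from -1.41 (*Dppa5a*) to 0.07. Whether these lower levels bear on the LINE results was not tested. *Mettl3* counted 411.7 and 357.3 in the WT26 inputs, 641.2 and 503 for *Mettl14* KO, 537.4 and 537.7 for RBC and 553.1 and 473.7 for *Mettl3* KO. *Mettl14* counted 245.9 and 281.6, 261.9 and 229.4, 274.3 and 373.6, and 312.4 and 308.3 in the same order. Neither gene passed the test in its own knockout. A short deletion leaves the rest of the gene to be counted, so these counts do not check the labels. *Neurod1*, a neural marker, was lower in *Mettl14* KO (7.2 and 0) than in WT26 inputs (80.9 and 51.5), with a log2 fold change of -3.80 ± 0.66 (SE, edgeR adjusted p = 0.03), and its part in the results was not tested. It was the only one of the 5 neural markers called there. *Pax6* (1.27) and *Map2* (0.61) were above 0, and *Tubb3* (-0.73) and *Sox1* (-0.12) below, so the neural markers did not move together.

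Older LINE subfamilies took 5.60% to 7.34% of the counts in the 8 inputs and 4.99% to 7.99% in the 8 IP libraries. Within the inputs, L1 made up 88.4% to 89.3% of the older LINE counts, L2 8.98% to 9.79%, CR1 1.39% to 1.65% and RTE 0.202% to 0.244%. The murine-named L1 alone held 53.1% to 57.3% and the mammalian-wide L1 30.3% to 34.0%. The deposited table gives neither the length nor the copy number of a subfamily, so these shares say how many reads a family took and not how strongly a copy was transcribed.

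The subfamily with the most input reads was Lx8, a murine-named L1, with 76755 and 76103 normalized counts in WT26, 77222 and 80326 for *Mettl14* KO, 74909 and 79936 for RBC and 80970 and 82642 for *Mettl3* KO. L1_Mus3 and Lx9 followed in that group. L1M4, L1M5 and L1M2 led the mammalian-wide L1, and HAL1, MusHAL1 and HAL1M8 led the HAL1 group. The 2 replicate inputs of a line lay close together, with a median log2 difference over the 151 subfamilies between 0.03 and 0.19.

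**Figure D1:**
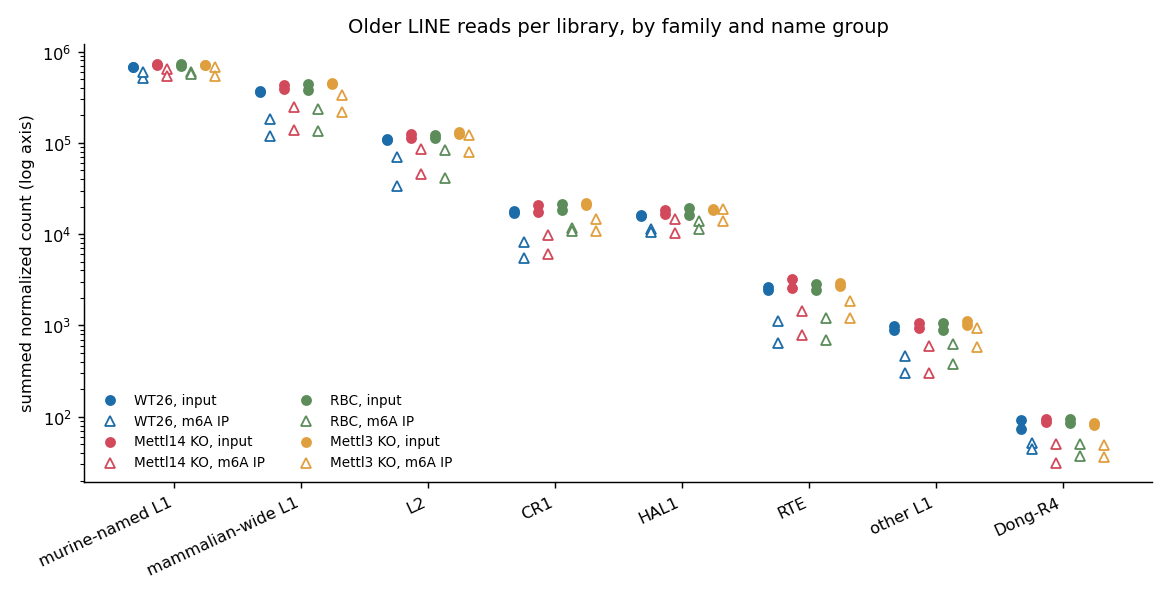
Summed normalized counts (log axis) of the older LINE families and L1 name groups in the 16 libraries, with filled circles for input and open triangles for m6A IP, 2 points of each kind per line. The inputs of the 4 lines lie close together in every group, and the IP triangles lie below the inputs of their line, except for HAL1 in *Mettl3* KO cells (18274 and 18790 in input, 18676 and 14056 in IP).

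The input levels were compared first, to ask whether the knockouts held more or less older LINE RNA. The summed older LINE level was 1182268 and 1189902 in WT26 and 1258149 and 1329440 in *Mettl14* KO inputs, a log2 fold change of 0.13 ± 0.34 (SE, edgeR quasi-likelihood test, adjusted p = 0.984). In RBC it was 1215747 and 1338272 and in *Mettl3* KO 1330122 and 1326006 (0.06 ± 0.34, edgeR adjusted p = 0.982). The *Mettl14* KO values lay above both WT26 values, whereas the RBC and *Mettl3* KO values overlapped. The control lines differed by a like amount, with RBC over WT26 at 0.11 ± 0.34 (edgeR adjusted p = 1). In bulk RNA a lower amount per cell and fewer cells that hold the RNA cannot be told apart.

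None of the 151 subfamilies was called in any of the 3 input comparisons with edgeR and a limit of 0.05 on the adjusted p, where 0.398% of all features were called in *Mettl14* KO against WT26, 0.76% in *Mettl3* KO against RBC and 0.584% in RBC against WT26. DESeq2 also called 0 in each. At an unadjusted p under 0.05 edgeR gave 0, 0 and 1 subfamilies, and the 1 was L1_Mm. The median log2 fold change of the subfamilies was 0.14, 0.11 and 0.13, beside 0.02, 0.01 and 0.00 over all tested features. Within replicate 1 and within replicate 2, 111 of 151 subfamilies (73.5%) were above 0 in both for *Mettl14* KO against WT26, 87 (57.6%) for *Mettl3* KO against RBC and 95 (62.9%) for RBC against WT26, where 34.0%, 35.6% and 31.8% of all features were. The shares were 55.2%, 48.8% and 50.8% over the 1097 tested repeat subfamilies, older LINE included, and 97.1%, 82.9% and 82.9% over the 35 SINE subfamilies. With size factors taken from the repeats alone the medians of the subfamilies were 0.06, 0.02 and 0.03.

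L1_Mm stood apart from this. It was chosen after its values were seen. Its input counted 11842 and 18083 for WT26, 11943 and 17159 for *Mettl14* KO, 28872 and 37355 for RBC and 24370 and 24177 for *Mettl3* KO, so that both lines of the RBC background were above both lines of the WT26 background. RBC over WT26 was 1.15 ± 0.36 (log2, SE, edgeR adjusted p = 0.253). Fitted to the inputs of these 2 lines alone, 2 libraries against 2, it was 1.13 and passed (edgeR adjusted p = 0.0185). Reads that map to several places were shared between copies, so the count of L1_Mm cannot be separated with certainty from that of other L1 of the mouse lineage, L1Md included. The summed L1Md level in the same inputs was 396962 and 417639 in WT26 and 322526 and 288501 in RBC.

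The ratio of IP to input within a line asks which RNA the m6A antibody recovered more or less than the average feature. In the controls most older LINE subfamilies were lower in the IP. In WT26 cells 101 of 151 fell and 1, L1VL1, rose (edgeR, adjusted p up to 0.05), where 16.1% of all features were lower and 16.9% higher. In RBC cells 73 fell and 1, L1MEj, rose, with 13.1% of all features lower and 15.5% higher. In *Mettl14* KO cells 68 fell and 0 rose, with 12% lower and 13.5% higher. In *Mettl3* KO cells 5 fell and 0 rose, with 2.22% lower and 2.78% higher. The 5 of *Mettl3* KO were 1 to 21 under the other settings with all libraries. No older LINE subfamily was enriched in any line by the rule of a log2 fold change above 1 with the same limit on p, which 14.5% of all features met in WT26, 11.9% in *Mettl14* KO, 13.4% in RBC and 2.54% in *Mettl3* KO. DESeq2 called 112 subfamilies lower in WT26, 91 in *Mettl14* KO, 91 in RBC and 12 in *Mettl3* KO cells.

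The median log2 fold change over the 151 subfamilies was -1.19 in WT26, -1.01 in *Mettl14* KO, -1.01 in RBC and -0.58 in *Mettl3* KO, beside medians of 0.02, 0.01, 0.02 and -0.01 over all features and of -1.29, -1.10, -1.15 and -0.68 over the 1097 tested repeat subfamilies, of which older LINE are a part. Both IP counts lay below both input counts for 132 subfamilies in WT26, 129 in *Mettl14* KO, 136 in RBC and 117 in *Mettl3* KO, which 35.6%, 34.3%, 35.3% and 34.1% of all features did. The values of the subfamilies in WT26 and RBC, which share no library, had a Pearson correlation of 0.918 and a Spearman correlation of 0.942 over the 151 subfamilies.

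The sign of these medians rests on the scaling. Scaled by library size the subfamilies' medians were -0.75 for WT26, -0.57 for *Mettl14* KO, -0.57 for RBC and -0.22 for *Mettl3* KO, with all features at 0.45, 0.45, 0.49 and 0.37. With size factors from the repeats alone the medians turned to 0.12, 0.09, 0.16 and 0.09, with all features at 1.46, 1.26, 1.32 and 0.74. In each of these settings the subfamilies lay below the median of all features. By repeat size factors 37, 23 and 26 subfamilies were higher and 5, 3 and 1 lower in WT26, *Mettl14* KO and RBC.

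The calls also rested on single libraries. Without the replicate 2 IP library 0 subfamilies were lower in each of the 4 lines, so that none of the calls of a lower subfamily given here held without it, while the medians were -0.85 in WT26, -0.59 in *Mettl14* KO, -0.67 in RBC and -0.34 in *Mettl3* KO. Without the replicate 2 input 2 were lower in WT26 and 0 in the other 3 lines, and without the replicate 1 input 25 were lower in WT26, 3 in *Mettl14* KO, 7 in RBC and 0 in *Mettl3* KO. Without the replicate 1 IP library 109, 107, 102 and 2 were lower. The calls over all features moved alike, for example from 7470 to 115 in WT26 without the replicate 2 IP library.

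**Figure D2:**
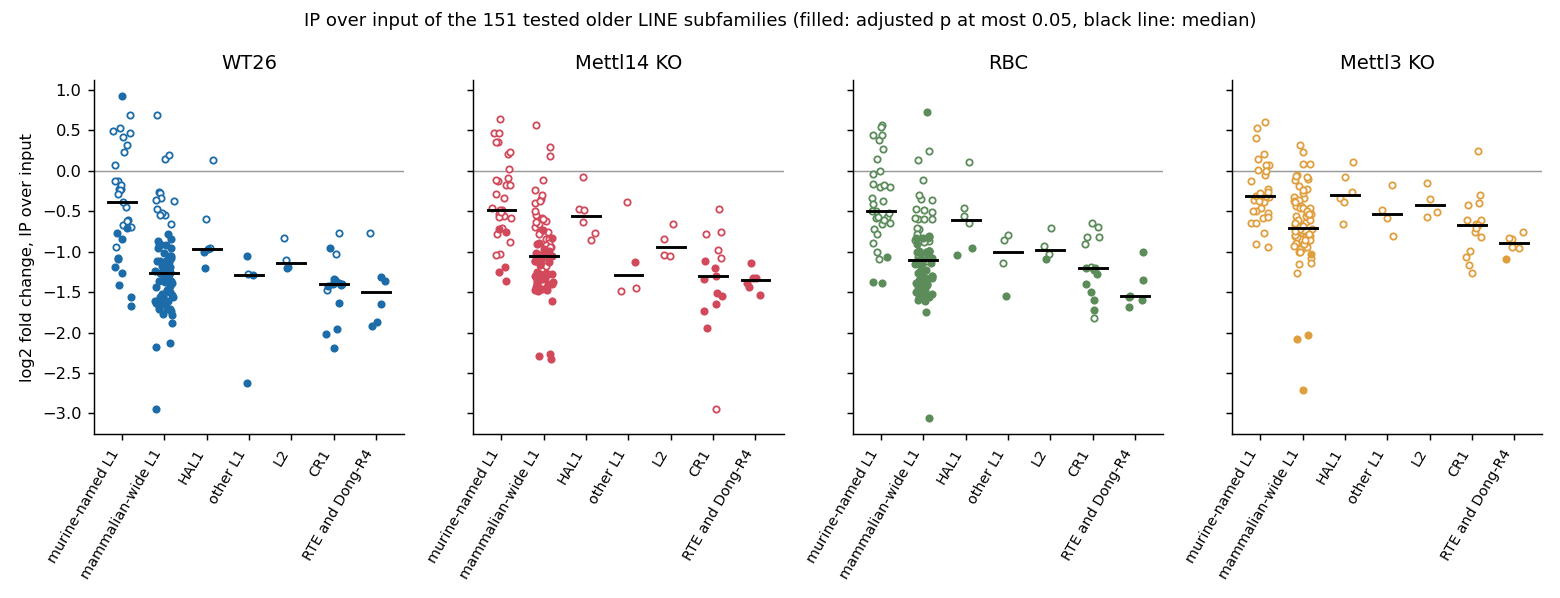
Fitted log2 fold change of IP over input for the 151 tested subfamilies (points) in each line, grouped by family and L1 name group, with filled points for those called and black lines at the group medians. The mammalian-wide L1, L2, CR1 and RTE points lie mostly below 0 in all 4 lines, the murine-named L1 spread across 0, and the medians are nearer 0 in *Mettl3* KO cells.

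The RTE elements took few reads but were lower in the IP for every member in both controls. Summed RTE counts fell from 2474 and 2606 in input to 1118 and 648.6 in IP in WT26, from 2603 and 3247 to 1439 and 785.2 in *Mettl14* KO and from 2452 and 2845 to 1199 and 689.0 in RBC. The log2 fold changes were -1.52 ± 0.36, -1.39 ± 0.36 and -1.49 ± 0.36 (SE, edgeR adjusted p = 0.00973, 0.0169 and 0.0128). In *Mettl3* KO cells the input held 2720 and 2903 and the IP 1871 and 1212 (-0.87 ± 0.35, edgeR adjusted p = 0.145). Input and IP counts did not overlap in any line. The RTE call was lost in WT26 without the replicate 2 input (adjusted p = 0.0641) or IP (0.112), and in *Mettl14* KO and RBC without the replicate 1 input (0.0619 and 0.0524), the replicate 2 input (0.104 and 0.096) or the replicate 2 IP (0.178 and 0.147). With repeat size factors the RTE sum was at -0.22, -0.27 and -0.31 in the 3 lines and not called. All 5 members were called lower in WT26, *Mettl14* KO and RBC, and 1 of 5, L5, in *Mettl3* KO.

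L4_A_Mam, the RTE member with the most reads, counted 1059 and 1137 in WT26 input and 525.5 and 356.2 in IP (-1.31 ± 0.33, edgeR adjusted p = 0.0117). L4_B_Mam was at -1.91 and L4_C_Mam at -1.64 in WT26, and both fell in *Mettl14* KO and RBC as well. L5 counted 119.4 and 121.1 in WT26 input and 39.1 and 26.1 in IP (-1.87 ± 0.30, edgeR adjusted p = 0.00417). In *Mettl3* KO cells it counted 118.1 and 144.5 in input and 69.0 and 53.1 in IP (-1.09 ± 0.29, edgeR adjusted p = 0.0455), a call that was lost with the input and IP paired (adjusted p = 0.0692). X3_LINE, the single RTE-BovB member, was at -1.36 in WT26, -1.33 in *Mettl14* KO, -1.56 in RBC and -0.75 in *Mettl3* KO. It was called in the first 3, and in *Mettl14* KO the paired fit lost the call (adjusted p = 0.0554). Mam_R4, of the Dong-R4 family, had 73.1 and 92.4 counts in WT26 input and 51.9 and 44.1 in IP and was not called there (-0.77), but fell in *Mettl14* KO (-1.14) and RBC (-1.002).

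CR1, to which L3 belongs, was lower in the IP by a like amount in WT26 and *Mettl14* KO. Summed CR1 counts fell from 17150 and 18101 to 8209 and 5490 in WT26 (-1.36 ± 0.30, edgeR adjusted p = 0.00783) and from 17458 and 20629 to 9672 and 6004 in *Mettl14* KO (-1.28 ± 0.30, edgeR adjusted p = 0.0126). In RBC they were 18219 and 21399 in input and 11781 and 10734 in IP, which narrowly missed the threshold (-0.82 ± 0.29, edgeR adjusted p = 0.0506). In *Mettl3* KO they were 20886 and 21887 in input and 14723 and 10719 in IP (-0.75 ± 0.29, edgeR adjusted p = 0.131). No input value overlapped an IP value of its line. The CR1 call was lost in WT26 without the replicate 2 input (adjusted p = 0.0606) or IP (0.0924) and in *Mettl14* KO without the replicate 1 input (0.055), the replicate 2 input (0.0877) or the replicate 2 IP (0.146). With repeat size factors it was at -0.03 in WT26, -0.13 in *Mettl14* KO and 0.46 in RBC, without a call.

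L3 held most of the CR1 reads. It counted 12122 and 12675 in WT26 input and 5766 and 3955 in IP (-1.35 ± 0.28, edgeR adjusted p = 0.00741). In RBC its input was 13117 and 15151 and its IP 8585 and 8883 (-0.69 ± 0.28, edgeR adjusted p = 0.0733). The replicate 2 IP of RBC was the only one of the 4 lines in which L3 was not below replicate 1. L3b, the next in reads, did not share this, with 1682 and 960.6 counts in RBC IP against 2723 and 3340 in input (-1.20 ± 0.34, edgeR adjusted p = 0.0216). Of the 15 CR1 members 11 were called lower in WT26, 9 in *Mettl14* KO, 8 in RBC and 0 in *Mettl3* KO.

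The largest CR1 depletions came from members with few reads. X6B_LINE counted 188.6 and 204.4 in WT26 input and 60.7 and 23.4 in IP (-2.20 ± 0.53, edgeR adjusted p = 0.0102), and X7A_LINE 126.5 and 119.6 in input and 35.0 and 25.2 in IP (-2.02 ± 0.41, edgeR adjusted p = 0.00718). X6A_LINE was at -1.96. All 3 also fell in *Mettl14* KO (-1.95, -1.74 and -1.51) and RBC (-1.60, -1.72 and -1.40). Plat_L3, L3b, X5B_LINE, X7B_LINE and X7C_LINE were called lower in the same 3 lines, with WT26 values from -1.42 to -1.39. CR1_Mam (-0.96) and X2_LINE (-1.63) were called in WT26 only, and CR1_Mam lost the call in the paired fit (adjusted p = 0.0601). X1_LINE, X5A_LINE, X7D_LINE and X8_LINE were called in no line, and their WT26 values were -0.77, -1.03, -1.48 and -1.34.

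L2 was far apart in the 2 IP replicates. Its summed IP count in replicate 2 was 47.6% of that in replicate 1 in WT26, 53.1% in *Mettl14* KO, 48.6% in RBC and 65.1% in *Mettl3* KO cells. This was not particular to L2. In the same order the SINE sum was at 54.6%, 58.7%, 54.3% and 64.9%, and mammalian-wide L1 at 64.9%, 55.5%, 57.7% and 65.5%. Murine-named L1 fell less or rose (116%, 83.4%, 95.9% and 80.5%), and L1Md rose (222%, 142%, 165% and 135%). Summed L2 counts were 109597 and 106871 in WT26 input and 70810 and 33699 in IP (-1.05 ± 0.43, edgeR adjusted p = 0.0733). *Mettl14* KO cells had 114260 and 123777 in input and 86131 and 45724 in IP (-0.85 ± 0.43, adjusted p = 0.149), RBC cells 112329 and 121802 in input and 83968 and 40808 in IP (-0.91 ± 0.43, adjusted p = 0.12), and *Mettl3* KO cells 130233 and 126326 in input and 121941 and 79341 in IP (-0.35 ± 0.43, adjusted p = 0.636). All IP values were below the inputs of their line, but the sum was called in none. Without the replicate 1 IP library it was called in WT26 (-1.68, edgeR adjusted p = 0.0193) and RBC (-1.51, 0.0302). With repeat size factors the sum was above 0 in all 4 lines, from 0.22 to 0.34, without a call, and L2b and L2c were not lower. Of the members, L2b (-1.20) and L2c (-1.19) fell in WT26 and L2b (-1.10) in RBC. L2a, the most abundant, counted 40143 and 39595 in WT26 input and 25586 and 11627 in IP (-1.10 ± 0.45, edgeR adjusted p = 0.0702), and L2 itself was at -0.83.

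The mammalian-wide L1 as a sum fell in WT26, from 358798 and 371320 in input to 181843 and 118065 in IP (-1.28 ± 0.40, edgeR adjusted p = 0.0257), and in RBC, from 377585 and 439140 to 236365 and 136375 (-1.13 ± 0.40, edgeR adjusted p = 0.0459). With input and IP paired, the RBC sum lost the call (adjusted p = 0.0706), and with repeat size factors both sums were slightly above 0 (0.0414 in WT26 and 0.0431 in RBC, not called). In *Mettl14* KO it was 388368 and 435854 in input and 248434 and 138001 in IP (-1.09 ± 0.39, adjusted p = 0.0553), and in *Mettl3* KO 437282 and 450644 in input and 334552 and 219035 in IP (-0.68 ± 0.39, adjusted p = 0.288). Both calls of the sum were lost without the replicate 1 input (adjusted p = 0.0914 in WT26 and 0.112 in RBC), the replicate 2 input (0.108 and 0.195) or the replicate 2 IP (0.202 and 0.324), and without the replicate 1 IP the *Mettl14* KO sum was called (-1.58, 0.0225). Of 83 tested members 67 fell in WT26, 47 in *Mettl14* KO, 52 in RBC and 4 in *Mettl3* KO. The L1MB and L1MC series had the lowest medians in WT26, -1.56 over 7 and -1.54 over 11 members, followed by L1ME (-1.34 over 27), L1MD (-1.29 over 6), L1MA (-1.24 over 9) and L1M with a digit (-1.06 over 23). All 7 L1MB members fell in WT26, *Mettl14* KO and RBC.

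Of the 3 most abundant mammalian-wide members, L1M4 counted 26284 and 26518 in WT26 input and 13538 and 8531 in IP (-1.26 ± 0.38, edgeR adjusted p = 0.0233). L1M5 (-1.26) and L1M2 (-0.92) also fell in WT26, L1M2 not in the paired fit (adjusted p = 0.0533). In RBC L1M4 and L1M5 were both at -1.10 and called, but not in the paired fit (adjusted p = 0.0568 and 0.0552). L1MCc fell in all 4 lines, from 931 and 973 in *Mettl3* KO input to 529.1 and 398.6 in IP (-1.04 ± 0.26, edgeR adjusted p = 0.0382, and 0.0649 in the paired fit). L1M3f counted 117.2 and 120.4 in *Mettl3* KO input and 37.1 and 19.8 in IP (-2.03 ± 0.41, edgeR adjusted p = 0.0176). In WT26, which is not the parent of that line, it counted 212.1 and 246.8 in input and 175.6 and 137.6 in IP (-0.55 ± 0.37, edgeR adjusted p = 0.259). Its change in *Mettl3* KO against RBC, the parent, was not called (-1.14 ± 0.55, edgeR adjusted p = 0.854). Its RBC input was below that of WT26, also without a call (-0.61 ± 0.37, edgeR adjusted p = 0.83). L1MEg1 fell in WT26 (-1.59), *Mettl14* KO (-2.33) and RBC (-1.62).

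With input and IP paired, 3 rather than 5 subfamilies were lower in *Mettl3* KO cells and 0 rather than 1 were higher in RBC. The 1 was L1MEj, a mammalian-wide L1 that ran against its group. It counted 571.1 and 612.1 in RBC input and 826.4 and 1124 in IP (0.72 ± 0.25, edgeR adjusted p = 0.0469, and 0.0561 in the paired fit). In WT26 it was at 0.68 (adjusted p = 0.0511), in *Mettl14* KO at 0.57 and in *Mettl3* KO at 0.09.

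The murine-named L1, which took most of the reads, stayed near the average feature as a sum. Their counts were 677472 and 673758 in WT26 input and 518619 and 603952 in IP (-0.27 ± 0.31, edgeR adjusted p = 0.514). The other lines were at -0.29, -0.29 and -0.22, all with adjusted p above the threshold. This sum joined members on opposite sides. The Lx series had a WT26 median of -0.70 over 21 members, of which 10 fell. The 4 L1_Mus members had values of 0.32 to 0.52 in WT26 and the 3 L1VL members 0.07 to 0.92. With repeat size factors the murine sum was higher in the IP in WT26, *Mettl14* KO and RBC (1.17, 0.92 and 0.99), and scaled by library size it was at 0.15 in WT26.

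Lx8, the Lx member with the most reads, counted 76755 and 76103 in WT26 input and 31078 and 16940 in IP (-1.67 ± 0.41, edgeR adjusted p = 0.0113). It also fell in *Mettl14* KO (-1.37) and RBC (-1.39) and was at -0.90 in *Mettl3* KO (adjusted p = 0.18). Lx9 fell in WT26 (-1.19). L1_Mus3 had 66417 and 64172 counts in WT26 input and 77440 and 106492 in IP (0.49 ± 0.28, edgeR adjusted p = 0.185), and its IP values were above its inputs in all 4 lines.

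L1VL1 was the member with the highest value in WT26, from 5399 and 4435 in input to 7475 and 11192 in IP (0.92 ± 0.28, edgeR adjusted p = 0.025). It was not called without the replicate 1 input (1.07, edgeR adjusted p = 0.0772), the replicate 2 input (0.79, 0.162) or the replicate 2 IP library (0.61, 0.234), nor when WT26 was fitted alone (0.91, 0.077). In *Mettl14* KO its input was 5788 and 4975 and its IP 8261 and 8567 (0.64 ± 0.28, adjusted p = 0.102), in RBC 5296 and 6321 and 6452 and 10697 (0.56, adjusted p = 0.14) and in *Mettl3* KO 5364 and 5063 and 7549 and 8245 (0.60, adjusted p = 0.199). Input and IP did not overlap in any line.

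**Figure D3:**
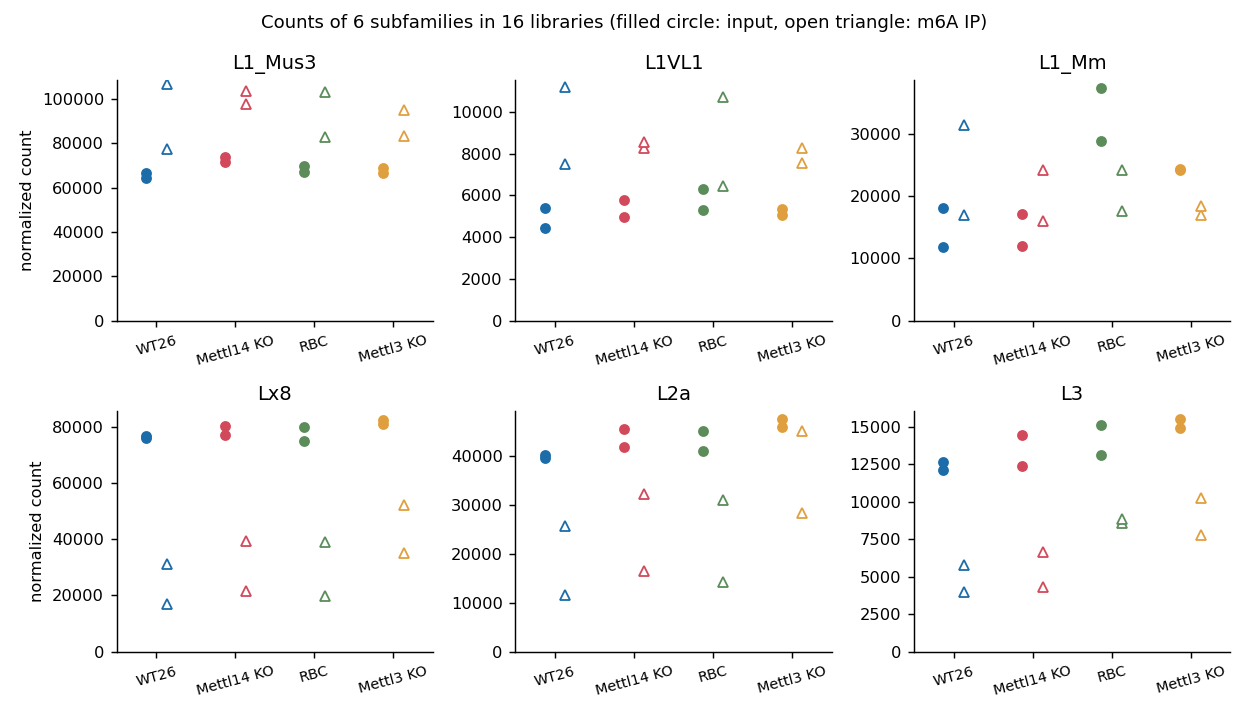
Normalized counts of L1_Mus3, L1VL1, L1_Mm, Lx8, L2a and L3 in the 16 libraries, with filled circles for input and open triangles for m6A IP, each panel with its own axis from 0. IP lies above input for L1_Mus3 and L1VL1, below it for Lx8, L2a and L3, and for L1_Mm on different sides in WT26 (11842 and 18083 in input) and RBC (28872 and 37355).

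The HAL1 sum was called in no line, at -0.53 in WT26, -0.49 in *Mettl14* KO, -0.50 in RBC and -0.18 in *Mettl3* KO cells. HAL1 itself fell in WT26 (-1.002 ± 0.30, edgeR adjusted p = 0.022) and RBC (-0.95), and HAL1M8 in WT26 (-1.21) and RBC (-1.04, not in the paired fit, adjusted p = 0.0556). MusHAL1 was near 0 in all 4 lines, at 0.13, -0.08, 0.11 and 0.10. Of the L1 outside these groups, L1M fell in WT26 (-1.29) and *Mettl14* KO (-1.13) and L1P5 in WT26 (-1.05), and L1PB4 was at -1.28 in WT26 without a call (adjusted p = 0.0854).

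A ratio of sums within a library needs no scaling and was used to place the older LINE subfamilies among the other repeats. Log2 IP over input of the older LINE sum was below that of the L1Md sum in 8 of 8 pairs, with a mean difference of -1.78 ± 0.755 (SD, exact paired permutation test, two-sided, p = 0.00781, the smallest that 8 pairs can give, adjusted p = 0.00938 over 6 comparisons). It was above that of the SINE sum in 8 of 8 pairs (0.691 ± 0.389, SD) and above that of the DNA transposon sum in 8 of 8 pairs (0.939 ± 0.417), each with the same exact p = 0.00781. The older LINE sum thus lay between the L1Md sum and the SINE and DNA transposon sums in every pair. The LTR sum was not among the tested comparisons and was nearer, at -0.73 and -1.04 in the WT26 pairs, where the older LINE sum was at -0.58 and -0.62. The place of the sum, which is mostly murine-named L1, does not hold for each family. In the WT26 pairs the RTE sum was at -1.15 and -2.01, below the SINE sum at -1.04 and -1.99. In RBC it was at -1.03 and -2.045, below SINE at -0.84 and -1.91. Single families were not tested against SINE.

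The families also differed among themselves. CR1 was below L1 in 8 of 8 pairs (-0.564 ± 0.345, SD) and RTE below L1 in 8 of 8 pairs (-0.858 ± 0.422), both at an exact permutation p = 0.00781 and an adjusted p = 0.00938. L2 was below L1 in 7 of 8 pairs (-0.355 ± 0.454, exact permutation p = 0.0391, adjusted p = 0.0391). The exception was the replicate 1 pair of *Mettl3* KO, at 0.0939. Most reads of the L1 sum are murine-named, and mammalian-wide L1 alone was lower. Mammalian-wide L1 was at -0.98 and -1.65 in the WT26 pairs and -0.68 and -1.69 in RBC. L2 was at -0.63 and -1.67 and at -0.42 and -1.58, and CR1 at -1.06 and -1.72 and at -0.63 and -0.995. RTE was at -1.15 and -2.01 and at -1.03 and -2.045. Only RTE lay below mammalian-wide L1 in each of these pairs, and differences from mammalian-wide L1 were not tested. The exact tests of these and the preceding sums take the 8 pairs as independent. However, the knockout lines derive from the control lines, and most values moved with the replicate number in every line. Within the controls or the knockouts alone 4 pairs cannot pass the threshold.

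**Figure D4:**
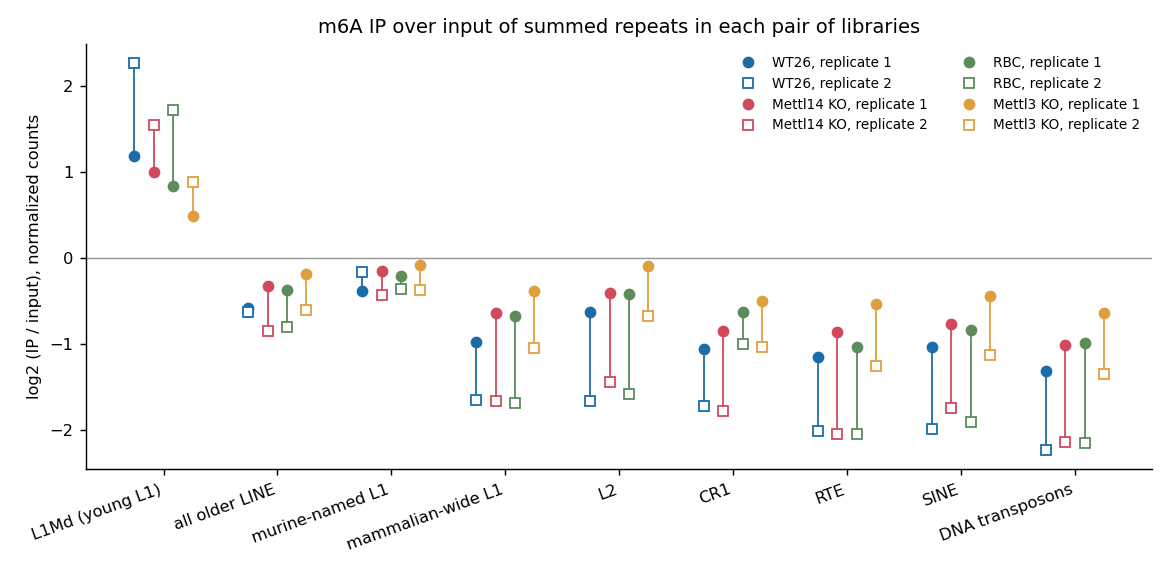
Log2 IP over input of summed repeats in each of the 8 pairs of libraries, with filled circles for replicate 1, open squares for replicate 2 and lines joining the 2 replicates of a line. L1Md lies above 0 and the plotted older LINE groups, SINE and DNA transposons below it, and in WT26 the L2 sum goes from -0.63 in replicate 1 to -1.67 in replicate 2.

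Most of these ratios were further from 0 in replicate 2, as the plot of IP over input by pair shows. In the IP libraries the median of the 151 subfamilies was lower in replicate 2 than in replicate 1 in all 4 lines, with a log2 difference of -0.59 in WT26, -0.83 in *Mettl14* KO, -0.73 in RBC and -0.58 in *Mettl3* KO, while the median over all features was between 0.03 and 0.07. Repeats in general shared this. Over the 1097 tested repeat subfamilies the median log2 IP over input went from -0.96 in replicate 1 to -1.75 in replicate 2 of WT26. It went from -0.70 to -1.66 in *Mettl14* KO, from -0.71 to -1.75 in RBC and from -0.42 to -1.03 in *Mettl3* KO. The L1Md median went the other way, from 1.12 to 2.25 in WT26. The older LINE sum minus L1Md was -1.77 in replicate 1 of WT26 and -2.89 in replicate 2, on the log2 scale of IP over input. The labels give no batch for these numbers, and which step of the protocol moved with them was not tested.

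Finally, the change of IP over input in the knockouts asks whether loss of METTL14 or METTL3 altered the recovery of older LINE RNA. No subfamily passed the edgeR test in either knockout or between the 2 controls. The same test called 0% of all 22621 features in *Mettl14* KO against WT26, 0% in *Mettl3* KO against RBC and 0% in RBC against WT26. At an unadjusted p under 0.05 edgeR gave 0, 0 and 1 of the 151 subfamilies (126, 787 and 133 features), and DESeq2 called 0 subfamilies in each with 0, 1 and 1 at an unadjusted p under 0.05. A change of IP over input combines 4 groups of 2 libraries, and its SE for the older LINE sum was 0.48 on the log2 scale.

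In *Mettl3* KO against RBC the median change of the 151 subfamilies was 0.41, beside 0.01 over all features, and 133 values were above 0. The medians within replicate 1 and within replicate 2 were 0.25 and 0.59, and 119 of 151 subfamilies (78.8%) were above 0 in both, where 35.2% of all features were. Other repeats lay above 0 too, with 76.3% of all repeat subfamilies, 100% of SINE, 86.2% of DNA transposon and 74.0% of LTR subfamilies above 0 in both. By family the median was 0.64 for RTE, 0.54 for L2, 0.49 for CR1 and 0.44 for mammalian-wide L1, beside 0.11 for murine-named L1 and -0.51 for the 6 L1Md subfamilies. The RTE sum changed by 0.62 ± 0.50 (SE, edgeR adjusted p = 0.854) and the L2 sum by 0.56 ± 0.60 (adjusted p = 0.854). With repeat size factors the median of the subfamilies was -0.06, with all features at -0.52.

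In *Mettl14* KO against WT26 the median change was 0.17, with 0.31 within replicate 1 and -0.03 within replicate 2. The 2 controls differed by as much, with a median of 0.15 for RBC against WT26 and values of 0.28 and 0.00 within the 2 numbers. Subfamilies above 0 in both numbers were 68 of 151 (45.0%) in the first comparison and 73 (48.3%) in the second, where 26.8% and 28.3% of all features and 47.6% and 47.4% of all repeat subfamilies were. The 2 comparisons share the WT26 libraries. With repeat size factors the *Mettl14* KO median was -0.02.

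**Figure D5:**
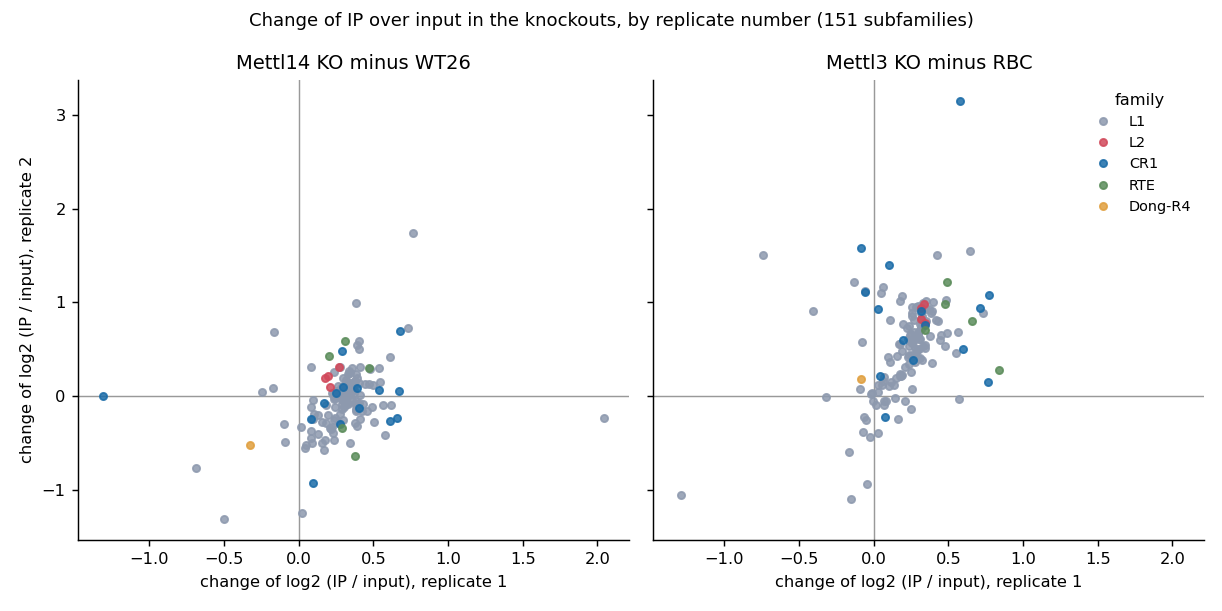
Change of log2 IP over input in *Mettl14* KO against WT26 (left) and *Mettl3* KO against RBC (right), within replicate 1 (x axis) and within replicate 2 (y axis), 1 point for each of 151 subfamilies and coloured by family. On the right 119 points lie above 0 in both replicates, on the left 68, and no subfamily passed the test in either.

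Genes that repress or restrict LINE elements were read in the same inputs. Of 30 such genes, among them *Trim28*, *Setdb1*, the HUSH complex and the DNA methyltransferases, all were tested, and 0 were called in *Mettl14* KO against WT26 or in RBC against WT26, where 0.398% and 0.584% of all features were. *Dnmt3l* and *Mov10*, chosen after their values were seen, were not called in *Mettl14* KO. *Dnmt3l*, a cofactor of the de novo DNA methyltransferases, counted 581.4 and 651.1 in WT26 and 101.3 and 214.7 in *Mettl14* KO inputs (-1.99 ± 0.60, edgeR adjusted p = 0.177), and *Mov10*, an RNA helicase, 1625 and 1385 against 692.3 and 774.5 (-1.04 ± 0.26, edgeR adjusted p = 0.0999). Neither pair of groups overlapped. In *Mettl3* KO against RBC, where 0.76% of all features were called, 1 of the 30 fell, *Zfp57*, a zinc finger protein that keeps imprinted regions methylated, with 6956 and 6751 counts in RBC and 2275 and 2288 in *Mettl3* KO (log2 fold change -1.59 ± 0.26, edgeR adjusted p = 0.0114). The median of the 30 genes was -0.22, -0.09 and -0.08 in the 3 comparisons. Whether the level of *Zfp57* bears on LINE counts was not tested.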

How the data were processed

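MeRIP-seq was analysed in 16 libraries of 4 ES cell lines (input and m6A IP, 2 biological replicates each). The authors deposited raw counts per gene and per repeat subfamily. Per the labels and the study's methods, reads were trimmed with cutadapt 1.8.1, aligned to GRCm38 with STAR 2.6.0c keeping multimapping reads, and counted with TEtranscripts and the RepeatMasker annotation of UCSC, and several MeRIP reactions were combined per replicate. Multimapping reads are shared out among copies, and reads of introns that hold a LINE copy can be counted to it. A second deposited table of RNA-seq counts holds genes only and was not used. No sequence is shown, since a consensus for these subfamilies was not used here.

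The quasi-likelihood test of edgeR 4.0.16 (R 4.3.3) was run on the deposited counts, scaled by DESeq2 1.42.0 size factors and filtered with filterByExpr, with Benjamini-Hochberg adjustment over 22621 features. All 16 libraries in 8 groups shared the spread. Calls needed an adjusted p no higher than 0.05. A change compares IP over input of one line with that of another on the log2 scale. Family sums were tested as added rows (22635 features). Values of a pair are log2 of normalized counts plus 0.5. Within-library ratios of sums were compared with an exact sign-flip test over 8 pairs in Python 3.11.15. The tests were tried on simulated data first. With 2 replicates the spread between replicates limits precision more than depth. The labels do not say whether replicates came from separate cultures, so p-values measure the spread between these samples. Replicates of each group differed by more than sampling noise.

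Inputs and IPs of the same line and number come from the same RNA preparation. The deviations of an input and its IP between replicates correlated at 0.20 to 0.29 over 13662 features in the 4 lines, and at -0.28 to 0.04 over 143 older LINE subfamilies. The pairing comes from the shared preparation, and a fit with the pair as a block is given where it changes a call.

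Named are all L2, CR1, RTE and Dong-R4 members, the 3 L1 members with the most input reads in each name group, up to 3 rises and 3 falls in each comparison (mean of at least 50, no overlap), L1VL1, *Mettl3* and *Mettl14*. The members, lists and tests were chosen with earlier results of these data known. Alternatives were DESeq2's test, TMM, library size, repeat size factors, no filter, at least 10 counts in every library, only the libraries compared, blocks on pairs or on the number, and leaving out each library. A block on the number within input and within IP was added after seeing the data.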

Additional observations from a re-analysis of the deposited data

Results flagged for a closer look

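L1_Mm, chosen after its values were seen, was the only one of the 151 tested subfamilies whose IP over input lay on opposite sides of 0 in both replicates of WT26 and RBC. Log2 IP over input was 0.52 and 0.80 in the 2 WT26 pairs and -0.72 and -0.62 in the 2 RBC pairs. The difference of RBC against WT26 was -1.36 on the log2 scale (edgeR quasi-likelihood test, adjusted p = 1). Every sample of one line went one way and every sample of the other went the opposite way, and the difference did not pass the test. The input, which is the denominator of this ratio, was itself higher in RBC than in WT26 (log2 fold change 1.15, edgeR adjusted p = 0.253). How far the input level enters the difference was not tested. With size factors from repeats both lines were above 0 (2.21 in WT26 and 0.70 in RBC), and the difference was -1.51. No subfamily lay on opposite sides in *Mettl14* KO against WT26 or in *Mettl3* KO against RBC. With 2 samples in each group, single samples that stand apart could not be tested.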

How the results depend on the processing

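Under every alternative with all libraries, the members' median IP over input kept its sign except with size factors from repeats. Those gave 37 subfamilies higher and 5 lower in WT26, 23 and 3 for *Mettl14* KO, 26 and 1 for RBC, and 1 lower in *Mettl3* KO. Of the named subfamilies and sums, 27 changed sign in WT26, 22 in *Mettl14* KO, 30 in RBC and 27 in *Mettl3* KO. Those called in either setting were, on the log2 scale in WT26: CR1_Mam 0.37, HAL1 0.33, HAL1M8 0.10, L1M2 0.46, L1M3f 0.81, L1M4 0.0606, L1M5 0.0575, L1M 0.0687, L1MCc 0.22, L1P5 0.28, L2b 0.0812, L2c 0.0902, L4_A_Mam 0.0162, Lx9 0.14, and the sums of older LINE 0.80, L1 0.86, mammalian-wide 0.0414, murine 1.17, HAL1 0.87 and other L1 0.0315. In *Mettl14* KO they were MusHAL1 1.13 and the sums of older LINE 0.61, L1 0.66 and murine 0.92. In RBC they were HAL1 0.25, HAL1M8 0.14, L1M4 0.0702, L1M5 0.0733, L2b 0.0644, Mam_R4 0.20, X7B_LINE 0.0703 and the sums of older LINE 0.67, L1 0.71, Dong-R4 0.20, mammalian-wide 0.0431, murine 0.99 and HAL1 0.75. None of the 27 in *Mettl3* KO was called in either setting. Scaling by library size gave 7 higher and 43 lower in WT26, 4 and 10 for *Mettl14* KO, 7 and 12 for RBC and 3 lower in *Mettl3* KO. The cause of these shifts was not tested.

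The edgeR test in its main setting did not call the older LINE sum in WT26 (-0.60), *Mettl14* KO (-0.57) or RBC (-0.58). With repeat size factors edgeR called this sum higher in WT26 (0.80, adjusted p = 0.0146), *Mettl14* KO (0.61, 0.046) and RBC (0.67, 0.0316). DESeq2 called it lower in WT26 (-0.60, adjusted p = 0.0276), *Mettl14* KO (-0.57, 0.0439) and RBC (-0.58, 0.0377). DESeq2 also called 3 subfamilies higher in WT26 and 12 lower in *Mettl3* KO. In *Mettl3* KO the lower calls were 3 with TMM, 3 with at least 10 counts in every library, 21 with no filter and 14 with only the libraries compared. The higher calls in WT26 were 2 with at least 10 counts and 0 with only the libraries compared, and in RBC 0 with no filter and 0 with only the libraries compared, which called 1 subfamily higher in the RBC input.

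With a replicate block on the pairs of input and IP, 3 were lower in *Mettl3* KO and 0 higher in RBC. It lost the calls given beside each subfamily and the mammalian-wide sum in RBC. Across lines the same number is only a number. The deviations between replicates correlated from line to line at 0.59 to 0.80 for the IPs (Pearson, 13662 features), a hint from the data. For the inputs these correlations were 0.25 to 0.45. A replicate block on the replicate number called 1 subfamily higher in the RBC input. A block by number within input and within IP, chosen after seeing the data, gave the older LINE sum as -0.42 in WT26 (adjusted p = 0.0123), -0.41 in *Mettl14* KO (0.0154) and -0.41 in RBC (0.0155), 3 higher in WT26, 21 lower in *Mettl3* KO, and in the inputs 1 lower in *Mettl14* KO and 1 higher in RBC.

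With the 4 pairs of the control lines only, the differences from L1Md, SINE and DNA were -2.09, 0.852 and 1.08 and those of L2, CR1 and RTE from L1 were -0.525, -0.554 and -1.01 (adjusted p = 0.125 each, exact permutation test). With the knockout pairs they were -1.47, 0.529, 0.798, -0.185, -0.574 and -0.708 (adjusted p = 0.15, and 0.375 for L2). With 4 pairs such a test cannot pass 0.05.

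Leaving out each library gave 0 to 109 lower in WT26, 0 to 107 for *Mettl14* KO, 0 to 102 for RBC and 0 to 2 for *Mettl3* KO, and 0 to 3 higher in WT26 and 0 to 2 in RBC. The older LINE sum ranged from -0.62 to -0.57, -0.80 to -0.35, -0.73 to -0.43 and -0.61 to -0.18 in these lines. Leaving out each pair, the ratios ranged from -1.94 to -1.62 (L1Md), 0.594 to 0.753 (SINE), 0.843 to 1.01 (DNA), -0.419 to -0.244 (L2), -0.607 to -0.475 (CR1) and -0.931 to -0.771 (RTE). Each change or input difference of a sum has an SE of 0.34 or more on the log2 scale for older LINE. An SE is not a detection limit, and shifts larger than it can also be missed here. The SE of an input difference comes from a spread shared with the IP libraries, whose replicates lay further apart. The median log2 difference between replicates over the 151 subfamilies was 0.03 to 0.19 in the inputs and -0.83 to -0.58 in the IP libraries.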
